A study of Mus musculus with 4 samples.

Results

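The 7 genes described here encode amino acid transporters that animal cells are known to raise under nutrient or endoplasmic reticulum stress: Slc3a2, Slc7a5, Slc7a11, Slc7a1, Slc1a4, Slc1a5 and Slc38a2. They were taken by name, through the RefSeq accession of each array probe, and are 7 of 32397 genes and unnamed transcripts on the array, with 9 of its 39429 probes. Of these genes, 6 had a probe bright enough to be tested, among 21649 tested genes and transcripts, and Slc7a11 did not. The samples were total RNA of the ileum, the last stretch of the small intestine, from male C57BL/6J mice 10 weeks old. There were 2 control samples and 2 from mice given metformin by mouth at 1000 mg/kg. Metformin is a glucose-lowering biguanide. The labels name no vehicle and no length of treatment, and one treatment text stands under all 4 samples. Whether each sample is its own mouse is not stated, so errors and p-values measure only the scatter of these samples, part of which may be technical.

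As background, Slc3a2 encodes 4F2hc (CD98), a single-pass glycoprotein that carries several transporters to the plasma membrane. Slc7a5 (LAT1) pairs with it and brings in leucine and other large neutral amino acids. Slc7a11 (xCT) pairs with it too and takes up cystine, the source of cysteine for glutathione, in exchange for glutamate. Slc7a1 (CAT1) works without a partner and carries arginine and lysine. Slc1a4 (ASCT1) and Slc1a5 (ASCT2) exchange small neutral amino acids, ASCT2 also glutamine, and Slc38a2 (SNAT2) takes up small neutral amino acids together with sodium. In the integrated stress response (ISR), kinases phosphorylate the translation factor eIF2, and the transcription factor ATF4 is then made in larger amounts. ATF4, paired with a C/EBP protein, binds short DNA elements whose core reads like TGATGNAA, and these transporters are among its known targets.

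Promoter sequences from RefSeq (build GRCm38.p6, 250 bases before to 50 after a transcript start) were held for 5 of the 7 genes, in 6 windows. The letters TGATGNAA, searched on both strands, occurred in 2 of the 6 windows, those of Slc7a11 and Slc1a4, and in 3.97% of all 32851 promoter windows. Among the 32 other ISR target genes listed for comparison, 11 of the 29 with a window held a match. Of all 27025 genes with a window, 1219 did. The antioxidant core of the factor NRF2, TGACNNNGC, searched separately on both strands, occurred in 2 of the 6 windows, 1 of Slc7a1 and that of Slc38a2, and in 12.4% of all windows. Of the 29 other ISR target genes with a window, 10 held this antioxidant core, against 3781 of all 27025 genes. A match is a run of letters and was not tested for binding, and a window without one says nothing about the factor. The Slc7a11 and Slc1a4 stretches are shown because they are the member stretches with a match, and those of Asns (asparagine synthetase) and Chac1 (a glutathione-degrading enzyme) as ISR targets outside the transporters. All run 5′ to 3′ along the gene, with TGATGNAA or its complement in capitals. The Slc7a11 stretch is chr3:50443614-50443863 (minus strand), with matches at bases -66 to -59 and -47 to -40 from the start. That of Slc1a4 is chr11:20332710-20332833 (minus strand), with its match at -4 to 4, across the start. The Asns stretch is chr6:7693210-7693329 (minus strand), with a match at -23 to -16, and the Chac1 stretch is chr2:119350992-119351111 (plus strand), with a match at -193 to -186.
Slc7a11: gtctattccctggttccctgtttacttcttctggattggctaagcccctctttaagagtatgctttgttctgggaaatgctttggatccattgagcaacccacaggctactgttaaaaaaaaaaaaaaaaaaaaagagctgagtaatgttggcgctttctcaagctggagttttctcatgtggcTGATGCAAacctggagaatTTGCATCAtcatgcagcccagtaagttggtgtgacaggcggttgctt
Slc1a4: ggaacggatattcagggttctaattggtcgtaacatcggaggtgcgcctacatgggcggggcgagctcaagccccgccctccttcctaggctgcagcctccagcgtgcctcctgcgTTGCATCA
Asns: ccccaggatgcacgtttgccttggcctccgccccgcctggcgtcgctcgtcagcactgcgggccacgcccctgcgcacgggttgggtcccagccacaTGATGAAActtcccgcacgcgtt
Chac1: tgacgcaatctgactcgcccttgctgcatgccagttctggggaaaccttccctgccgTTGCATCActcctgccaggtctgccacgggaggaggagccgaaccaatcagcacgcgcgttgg

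Each array had 65.2% to 69.1% of its probes well above background, and no spot was saturated. The 75th percentile of the signal was 918 and 1454 in the controls and 866 and 1072 in the metformin samples, and each array was scaled to it. All 4 arrays lay on 1 slide, the controls at positions 1 and 2 and the metformin samples at 3 and 4, so position and treatment cannot be told apart. Metformin 1 differed from the other arrays in genes of gut region. There the median over 8 genes of the proximal small intestine was 2.35 above the control mean (log2). In control 1, control 2 and metformin 2 it was 0.27, -0.27 and -0.56. The median over 7 ileal genes, Fabp6 and Slc10a2 among them, was -0.96 in metformin 1, against 0.32, -0.32 and 0.07 in the remaining arrays in that order. Neither list was uniform. The proximal genes Cybrd1 (-3.94) and Slc40a1 (-1.69) read lowest in metformin 1, where the other tested proximal genes read highest. The ileal genes Cubn (6.59) and Amn (5.68) read highest there, and the other ileal genes lowest. Control 1 held more smooth muscle signal, with a median of 2.40 over 8 markers against -2.40 in control 2. With metformin, all 8 fibroblast and all 8 smooth muscle markers were lower, 8 and 6 of them without overlap, and all 11 tested crypt and cell cycle markers were lower, 3 without overlap. Of 7 tested adipocyte markers 6 were lower, all 6 without overlap (list median -2.78), and of 7 endothelial markers 5 were lower, 4 without overlap. All 12 enterocyte and all 9 tested T cell markers were higher, 0 and 1 of them without overlap, and 5 of 6 tested myeloid markers were higher, 3 without overlap. Over all genes, 12.3% lay higher with metformin without overlap and 8.57% lower. None of the markers passed the adjusted test, and their part in the values below was not tested. In such tissue pieces, fewer cells of a type and less RNA per cell cannot be told apart.

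No transporter gene of the set differed between metformin and control beyond the spread of the samples. With limma and Benjamini-Hochberg adjustment over all genes, 0 of the 6 tested members were higher and 0 lower (adjusted p = 0.999999 for each), as were 0% of all genes in either direction. An unadjusted p under 0.05 was reached by 347 genes, or 1.60% of those tested, and by 0 of the 6 members. The metformin and control samples overlapped for each of the 6, whereas 12.3% of all genes lay higher with metformin without overlap and 8.57% lower. Of the 6, 2 had a positive difference (57.6% of all genes did) and 4 a negative one. Their median difference was -0.23 on the log2 scale, against 0.06 over all genes tested. The mean difference between numbers 2 and 1 was larger in size than that of treatment for 5 of the 6, though only 0.25 for Slc1a4. For Slc3a2 it was smaller, at -0.25 against 0.44. For the same 5 both samples numbered 2 exceeded both numbered 1, and for 4 of these the means differed at least 2-fold. Over all genes, 27.7% and 5.98% met these criteria, while 38.2% had both samples numbered 2 below both numbered 1, and 8.45% of all genes were below with means at least 2-fold apart. The numbers come from the sample titles, which do not say that they mark a shared mouse, litter or day, and this split was described without a test.

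**Figure D1:**
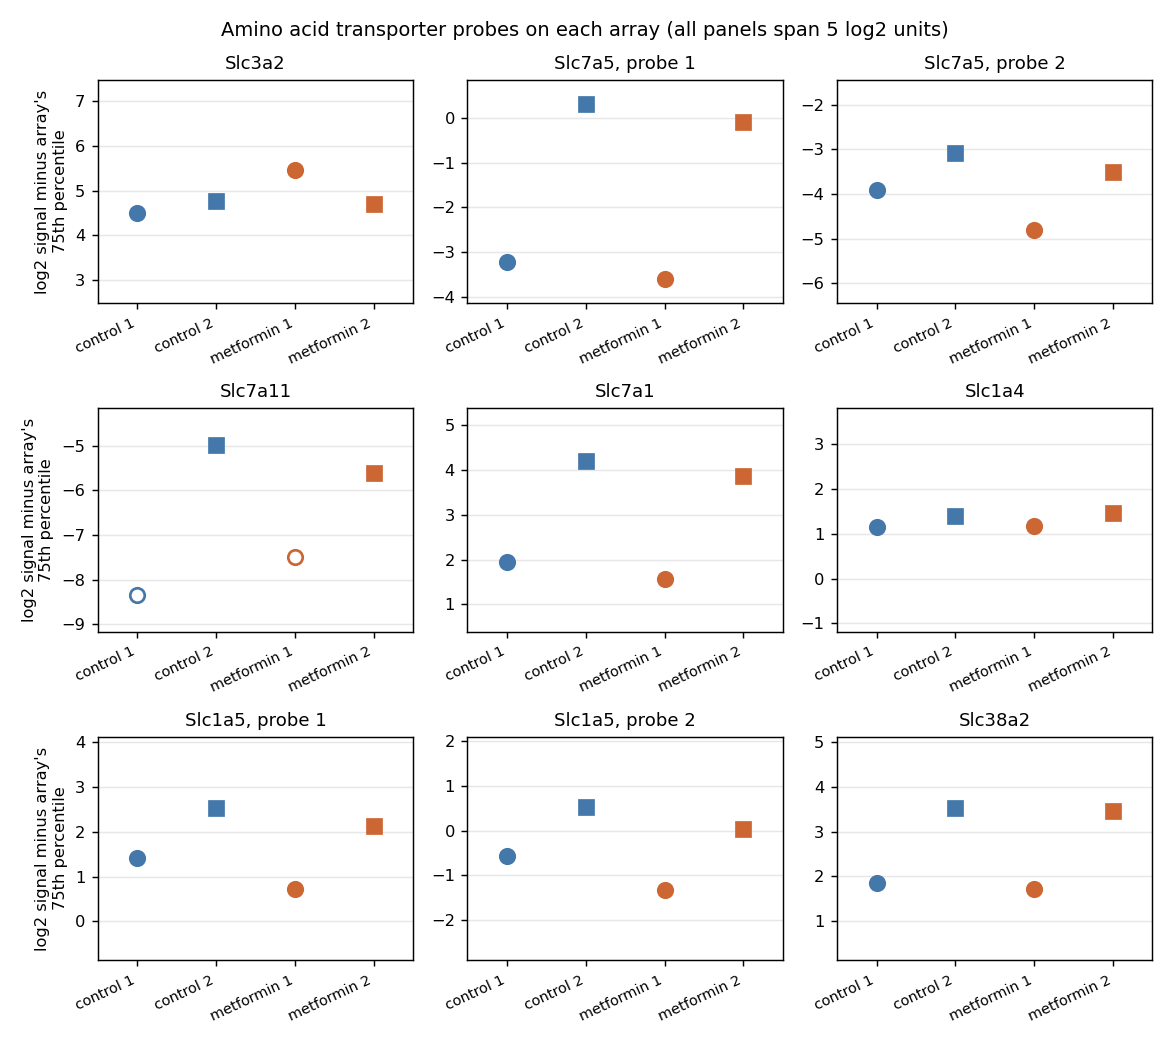
Log2 signal minus the array's 75th percentile (vertical axis) of the 9 probes on each of the 4 arrays (horizontal axis), with controls in blue, metformin samples in orange, circles for number 1 and squares for number 2, and open symbols where the probe was not well above background. Slc7a5, Slc7a1, Slc1a5, Slc38a2 and Slc7a11 lie high in control 2 and metformin 2 and low in control 1 and metformin 1, Slc1a4 spans only 0.30, and Slc3a2 is highest in metformin 1.

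The shared heavy chain Slc3a2 was measured by 1 probe, well above background on all 4 arrays. On the log2 scale relative to the array's 75th percentile, controls 1 and 2 read 4.51 and 4.76, and metformin 1 and 2 read 5.46 and 4.70. Metformin 1 was high, while metformin 2 lay between the controls, so the groups overlapped. The difference was 0.44 (SE 0.38; limma, adjusted p = 0.999999), a 1.36-fold change whose 95% interval ran from 0.667-fold to 2.77-fold. Without metformin 1, the array with the raised proximal median, the difference was 0.06. It was 0.31 without control 1, 0.57 without control 2 and 0.82 without metformin 2. The part of gut region in this difference was not tested.

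Slc7a5, the light chain that carries leucine, varied most within the groups. Its brighter probe read -3.22 and 0.31 in controls 1 and 2, and -3.60 and -0.09 in metformin 1 and 2. The samples numbered 2 were 11.5-fold higher among the controls and 11.4-fold higher among the metformin samples, a mean separation of 3.52 that was larger in size than that of 99.7% of all genes tested. The treatment difference of -0.39 (SE 1.69; limma, adjusted p = 0.999999) was small beside it, with a 95% interval from -4.92 to 4.14. The treatment difference turned to 1.38 without control 2 and to 1.37 without metformin 1. It was -2.15 without control 1 and -2.14 without metformin 2. Each omission leaves 1 group with a single sample number, so the separation by number enters these differences.

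The other Slc7a5 probe was dimmer but above background on all 4 arrays, reading -3.90, -3.09, -4.80 and -3.50 in control 1, control 2, metformin 1 and metformin 2. It put the same samples high and low with a smaller separation, 1.75-fold among controls and 2.45-fold among metformin samples. Both probes are assigned to one accession, NM_011404, and the size of the separation in Slc7a5 is uncertain to this extent.

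Slc7a11, the cystine and glutamate exchanger, was near the limit of detection. Its only probe was well above background in control 2 and metformin 2, at -5.00 and -5.61, and not well above background in control 1 and metformin 1, at -8.33 and -7.49. The scanner software's error estimate was at most 11.7% of the signal in the first pair, and 78.0% and 29.1% in the second. Against the dimmest probe still well above background on the array, control 2 was at least 2.72-fold above control 1, and metformin 2 at least 2.76-fold above metformin 1. Since neither group was above background on both of its arrays, no treatment test was made in the filtered data. Among these 4 arrays the probe was thus well above background only in the samples numbered 2.

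Slc7a1, the arginine and lysine carrier, read 1.95 and 4.20 in controls 1 and 2, and 1.57 and 3.87 in metformin 1 and 2. Both samples numbered 2 were high, 4.77-fold above number 1 in the controls and 4.93-fold in the metformin group. The mean separation of 2.28 was larger in size than that of 98.5% of tested genes. The treatment difference was -0.36 (SE 1.12; limma, adjusted p = 0.999999; 95% interval -3.34 to 2.63). It turned to 0.77 without control 2 and 0.79 without metformin 1, and was -1.48 without control 1 and -1.51 without metformin 2.

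The related SLC1 exchangers behaved unlike each other. Slc1a5, which carries glutamine, read 1.42 and 2.53 in controls 1 and 2 and 0.73 and 2.13 in metformin 1 and 2 by its brighter probe. Its dimmer probe read -0.57, 0.53, -1.33 and 0.03 in the same order. Both probes placed the samples numbered 2 above those numbered 1, by 2.15-fold among controls for the brighter and 2.15-fold for the dimmer probe, and by 2.63-fold and 2.56-fold among metformin samples. The treatment difference of -0.54 (SE 0.66; limma, adjusted p = 0.999999; 95% interval -2.30 to 1.21) was the largest in size of the 6. It was 0.01 without control 2, 0.15 without metformin 1, -1.10 without control 1 and -1.24 without metformin 2.

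Slc1a4, its relative for serine, alanine and other small neutral amino acids, was nearly level across the samples. Controls 1 and 2 read 1.16 and 1.39, and metformin 1 and 2 read 1.19 and 1.46, a span of 0.30. The samples numbered 2 were still the higher ones, by 1.17-fold and 1.21-fold. The treatment difference was 0.05 (SE 0.30; limma, adjusted p = 0.999999), with a 95% interval from 0.593-fold to 1.80-fold. The sign changed under 4 of 14 other settings.

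Slc38a2, the sodium-coupled carrier, read 1.86 and 3.53 in controls 1 and 2, and 1.72 and 3.46 in metformin 1 and 2. Number 2 exceeded number 1 by 3.18-fold and 3.35-fold, and the mean separation of 1.71 exceeded in size that of 95.8% of tested genes. The treatment difference was -0.10 (SE 0.86; limma, adjusted p = 0.999999; 95% interval -2.39 to 2.19). It turned to 0.73 without control 2 and to 0.77 without metformin 1, and was -0.94 without control 1 and -0.97 without metformin 2.

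**Figure D2:**
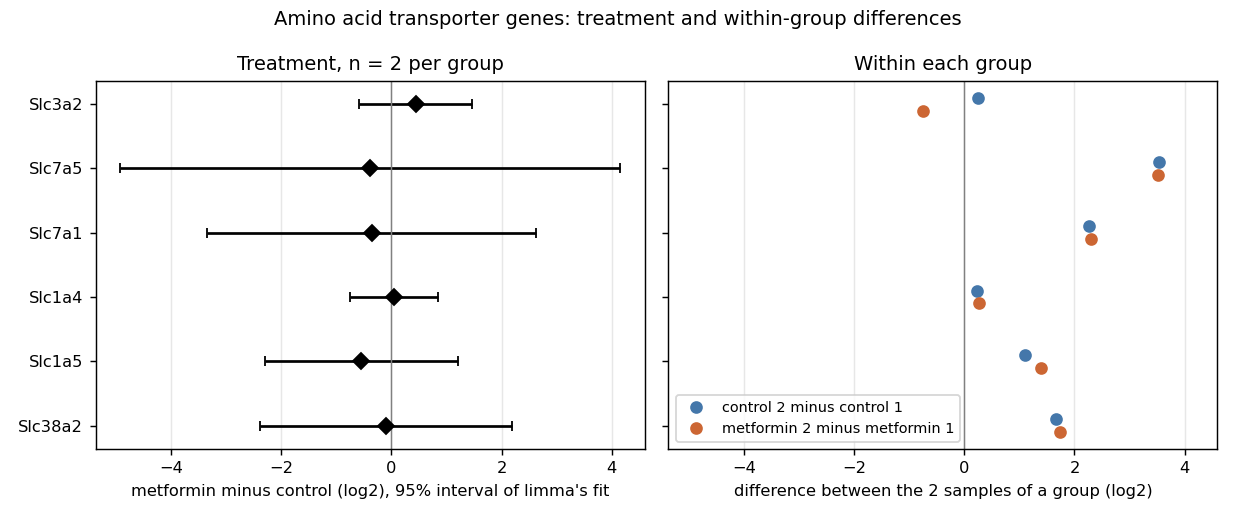
Left, metformin minus control on the log2 scale for the 6 tested genes (diamonds) with the 95% interval of limma's fit, 2 samples per group; right, number 2 minus number 1 within the controls (blue) and within the metformin samples (orange). Every interval on the left includes 0, while the within-group differences of Slc7a5, Slc7a1, Slc1a5 and Slc38a2 lie between 1.11 and 3.53.

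The other ISR target genes, 30 of 32 of which were tested, were arranged much as the transporters were. None passed the adjusted test. With metformin 7 were higher and 23 lower, with a median difference of -0.24, while 57.6% of all genes were higher. In each direction 1 did not overlap, against 12.3% of all genes higher and 8.57% lower. The median difference turned to 0.42 without control 2 and 0.27 without metformin 1, and was -0.97 without control 1 and -1.07 without metformin 2. Both samples numbered 2 lay above both numbered 1 for 23 of the 30, 16 of them with means at least 2-fold apart, and below for 1. Of all genes, 27.7% lay above, 5.98% above with means at least 2-fold apart, and 38.2% below. The median separation of the ISR targets was 1.24, against 1.48 over the 6 transporters and -0.12 over all genes tested. This list was drawn up with earlier results of these data known, and its counts are not independent evidence.

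Asns, which makes asparagine, read 2.20 and 4.65 in controls 1 and 2 and 1.91 and 4.60 in metformin 1 and 2. Chac1 read -0.96, 3.11, -0.43 and 2.72, and the serine synthesis enzyme Psat1 -0.73, 2.20, -1.30 and 1.62. Gdf15, a stress hormone, read -1.47, 3.15, -2.12 and 2.33. In these genes, as in Slc7a5 and Slc7a1, the arrays numbered 2 were high in both groups.

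Ddit3 and Trib3 were not arranged this way. Ddit3 (CHOP), a pro-apoptotic transcription factor, read -0.53, 0.30, -0.16 and -0.21. Trib3, a pseudokinase, read 2.60, 3.22, 3.47 and 2.30 and was highest in metformin 1, as Slc3a2 was. Sesn2, a leucine sensor, had the samples numbered 2 above those numbered 1 by little, at -0.05, 0.22, -0.11 and 0.07. The targets of smallest unadjusted p for treatment were Cbs, an enzyme of cysteine synthesis, at -1.03 (SE 0.59; limma, adjusted p = 0.999999) and Ppp1r15a (GADD34), which restores translation, at -0.82 (SE 0.71; same adjusted p).

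Among 12 regulators, all tested, 6 had both samples numbered 2 above both numbered 1 and 3 below, against 27.7% and 38.2% of all genes. The median treatment difference of the regulators was 0.10, or -0.19 with the unscaled deposited values and 0.03 without control 1. The message for ATF4 itself (Atf4) read 6.20 and 7.28 in controls 1 and 2 and 6.28 and 7.32 in metformin 1 and 2, with a treatment difference of 0.06 (SE 0.57; limma, adjusted p = 0.999999). Its samples numbered 2 were thus about 1.06 higher on the log2 scale in mean. ATF4 is controlled mainly at translation, which arrays do not measure. Bach1 and Nfe2l2, the repressor and activator of antioxidant genes, had the smallest unadjusted p of this list for treatment. They were higher with metformin without overlap, by 0.71 (SE 0.30; limma, adjusted p = 0.999999) and 0.38 (SE 0.30; same adjusted p). Over all genes, 12.3% were higher without overlap.

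The glutathione and NRF2 target list holds enzymes of glutathione synthesis and use and other antioxidant genes. Of its 16 genes, 5 had the samples numbered 2 above and 7 below, against 27.7% and 38.2% of all genes. The list had a median separation of -0.10 and a median treatment difference of 0.24, or -0.021 with the unscaled deposited values. That treatment median was 0.12 without control 2 and 0.11 without metformin 1. Hmox1 (heme oxygenase), named after its values were seen, had the widest separation upward in this list, 1.92, reading -2.83 and -0.73 in controls 1 and 2 and -2.31 and -0.57 in metformin 1 and 2. The catalytic and modifier subunits of glutamate-cysteine ligase differed from each other: Gclc read 2.13, 2.38, 2.23 and 2.86, while Gclm read 0.72, -0.21, 1.30 and -0.25. The NRF2 targets Nqo1 and Txnrd1 spanned little, with separations of 0.22 and 0.12. Srxn1 and Ggt1 had the smallest unadjusted p for treatment here, at 0.45 (SE 0.34; limma, adjusted p = 0.999999) and 0.59 (SE 0.56; same adjusted p).

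Carriers that absorb dietary amino acids and peptides ran the opposite way to the stress-responsive ones. Of 13 tested, 0 had the samples numbered 2 above those numbered 1 and 10 had them below, 5 with means at least 2-fold apart. The shares of all genes were 27.7% above, 38.2% below and 8.45% below with means at least 2-fold apart. The median separation of the absorptive carriers was -0.67, against -0.12 over all genes tested. Slc6a19 (B0AT1), the main brush border carrier of neutral amino acids, read 4.12 and 2.73 in controls 1 and 2 and 4.72 and 3.11 in metformin 1 and 2. The peptide carrier Slc15a1 (PEPT1) read 3.33, 1.58, 4.30 and 1.72. Slc3a1 (rBAT), the counterpart of the Slc3a2 heavy chain at the brush border, read 3.92, 3.08, 4.56 and 3.42, and its partner Slc7a9 6.05, 5.18, 6.10 and 5.70.

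The basolateral carriers Slc7a7 and Slc7a8 use the Slc3a2 heavy chain as Slc7a5 does. Both are in the absorptive list and already counted above among its genes with the samples numbered 2 below. Slc7a7 read 5.83, 5.31, 6.49 and 5.74, and Slc7a8 2.32, 1.87, 4.12 and 1.62. Like Slc3a2, both were highest in metformin 1. With metformin, 12 of the 13 absorptive genes were higher, against 57.6% of all genes, and 1 was higher without overlap, against 12.3%. The median difference was 0.43 and none passed the adjusted test. The median was -0.08 without metformin 1, the array with the raised proximal median, 0.01 without control 2, 0.75 without control 1 and 1.05 without metformin 2. All 12 enterocyte markers were higher with metformin too, with a median difference of 0.37, and their part in the shift of the carriers was not tested. Slc36a1 had a difference of 0.58 (SE 0.44; limma, adjusted p = 0.999999) and Slc7a7 of 0.55 (SE 0.41; same adjusted p). The 21 tested partners and relatives of the member families share 5 genes with the absorptive list. Of these 21, 4 had the samples numbered 2 above and 12 below, against 27.7% and 38.2% of all genes. The median separation of these partners and relatives was -0.53 and the median treatment difference 0.16, or -0.20 without the filter on dim probes. Without metformin 1 that treatment median was -0.07, without control 1 it was 0.55, without control 2 it was 0.06 and without metformin 2 it was 0.38. The glutamate carrier Slc1a7 had the smallest p among those named only there, at 0.47 (SE 0.29; limma, adjusted p = 0.999999).

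**Figure D3:**
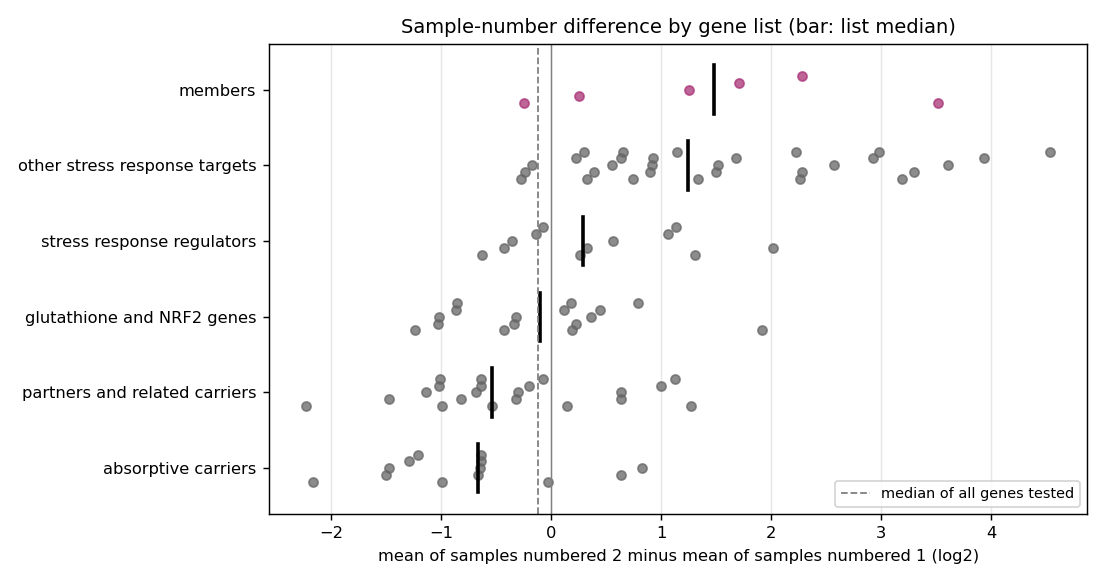
Mean of the 2 samples numbered 2 minus mean of the 2 numbered 1 on the log2 scale (horizontal axis) for each tested gene of 6 lists, with a black bar at each list's median and a dashed line at the median of all genes tested (-0.12). The medians of the transporters and the other stress response targets lie at 1.48 and 1.24, that of the absorptive carriers at -0.67.

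The enterocyte, T cell, and crypt and cell cycle marker lists moved with the sample number as well. The part of marker lists in the transporter values was not tested. Over all genes, 27.7% had both samples numbered 2 above both numbered 1, and 38.2% below. Above and below were 0 and 0 of 8 fibroblast, 0 and 1 of 8 smooth muscle, and 0 and 1 of 7 adipocyte markers. They were 1 and 1 of 7 endothelial, 1 and 0 of 8 B and plasma cell, and 1 and 1 of 6 myeloid markers. They were 1 and 2 of 7 ileal, 1 and 4 of 8 proximal, and 2 and 0 of 3 pancreas markers. Of 12 enterocyte markers, 10 had the samples numbered 2 below those numbered 1 and 2 above; their summed scaled signal was 1713 and 1162 in controls 1 and 2 and 2419 and 1454 in metformin 1 and 2. Of 9 tested T cell markers 6 were below and 0 above, with sums of 36.7, 17.4, 84.6 and 21.4. Of 11 tested crypt and cell cycle markers 6 were above and 1 below, with sums of 35.6, 44.1, 22.8 and 35.7. The crypt marker Olfm4 and the T cell marker Trac had no probe named here. Smooth muscle sums were 133, 7.09, 5.49 and 6.30, so the high value lay in control 1 alone. Slc7a5, Slc7a1, Slc1a5 and Slc38a2 were low in control 1 and lower still in metformin 1, which had the lowest smooth muscle sum.

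For the 4 tested members that spanned at least 1 on the log2 scale, the 3 most similar genes were taken from 13869 named genes by the root mean square distance between profiles over the 4 arrays, each centred on its own mean. Nearest to Slc7a5 were Vldlr, a lipoprotein receptor (distance 0.11), the kinase Plk3 (0.17) and the co-chaperone Fkbp5 (0.21). Nearest to Slc7a1 were the transcription factor Atf5 (0.04), Urb1, a ribosome biogenesis factor (0.07), and Eef1e1, a component of the tRNA synthetase complex (0.09). Slc38a2 was followed by the keratin Krt13 (0.04), the cysteinyl-tRNA synthetase Cars (0.05) and Trmt61b, a mitochondrial tRNA methyltransferase (0.06). Slc1a5 was followed by Noa1, Stard5 and Zfp202, each at 0.03. Vldlr and Atf5 stand in the ISR target list used above; Vldlr read -1.09, 2.22, -1.43 and 1.84, and Atf5 1.96, 4.27, 1.64 and 3.84. With 4 arrays many genes fit one profile closely, so these distances describe the samples and no more.

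**Figure D4:**
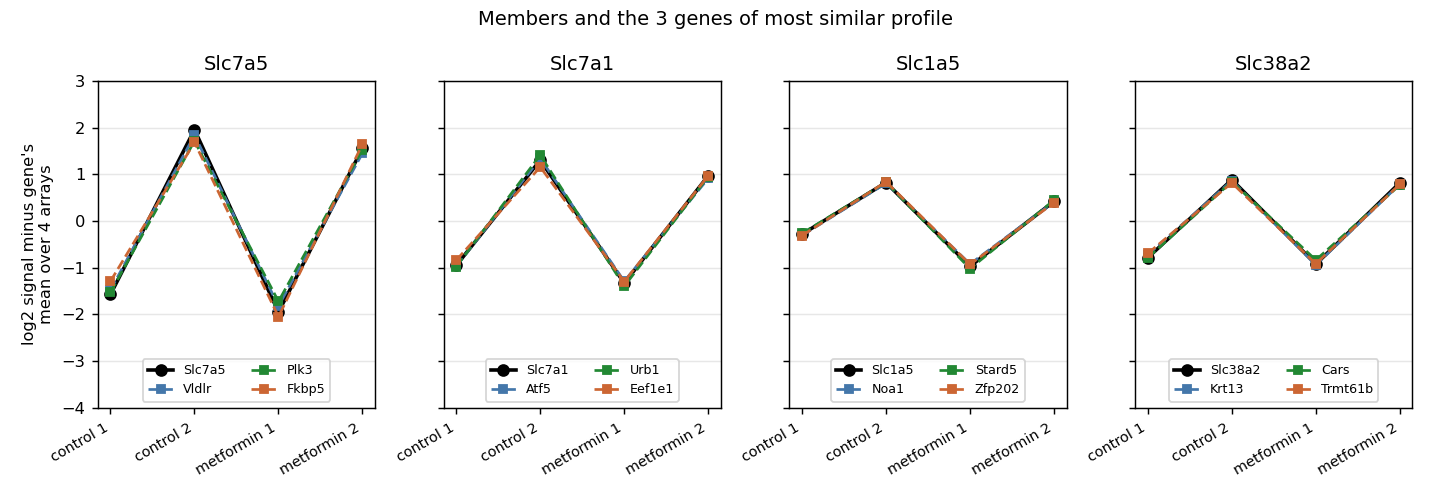
Log2 signal of Slc7a5, Slc7a1, Slc1a5 and Slc38a2 (black) and of the 3 genes nearest to each (dashed), minus each gene's mean over the 4 arrays (vertical axis), by array (horizontal axis). Each panel shows control 2 and metformin 2 high and control 1 and metformin 1 low, with distances of 0.03 to 0.21.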

How the data were processed

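Ileal RNA was hybridised to 4 one-colour Cy3 arrays. Per the file headers, Agilent Feature Extraction 10.7.3.1 made the deposited spot intensity, background-subtracted and detrended within the array and not scaled between arrays. The deposited series table, called normalized by its own header, equalled the raw median spot intensity for all 39030 probes with 1 spot, so it served only as an alternative. Values here are log2 of the processed intensity, less the 75th percentile over an array's probes other than controls. Flagged spots were left out (47 probes dropped), and a probe was kept if well above background on both arrays of a group (26441 kept). The brightest probe stood for a gene. Accessions were matched without version to the RefSeq table of GRCm38.p6, which named 27508 of 39429 probes. The headers name another build, so no coordinates of genes or probes are given. Those of the promoter stretches are on GRCm38.p6. Groups were compared across all genes with lmFit and eBayes of limma 3.58.1 (R 4.3.3), two-sided, Benjamini-Hochberg threshold 0.05. Residual degrees of freedom were 2 and the prior added 2.43. The fit was tested on simulated arrays with independent noise. In the real arrays the deviations of same-numbered samples correlated at 0.56 across genes, and how the test performs with such shared deviations was not simulated. With 2 samples per group, their number limits the precision. An exact permutation test of 2 against 2 samples cannot go below p = 0.333 (two-sided) and was not used. Where the bright sample of a pair is set against a dim one, the fold is a bound against the lowest signal well above background. Genes were named by a rule: all members with every probe, 18 listed context genes, the 2 of smallest p of each context list, and the 3 nearest profiles. The members and lists were chosen with earlier results of these data known. Alternatives covered scaling, background correction, the filter, the probe rule, flags, the variance model, the replicate block and leaving out each sample. No mean signal column was present, so normexp (offset 50) was run on the median signal.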

Additional observations from a re-analysis of the deposited data

How the results depend on the processing

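No gene passed the adjusted threshold under any of the 14 alternatives, with 114 to 1566 genes at an unadjusted p under 0.05. The median difference of the tested transporters ran from -1.11 to 0.65 when single samples were left out. Those omissions ranged from -2.15 to 1.38 for Slc7a5, -1.51 to 0.79 for Slc7a1, -1.24 to 0.15 for Slc1a5, -0.97 to 0.77 for Slc38a2 and -0.091 to 0.18 for Slc1a4, whose sign changed, and from 0.06 to 0.82 for Slc3a2, whose sign did not. Slc1a4 also changed sign with quantile normalization (-0.0031) and with the unscaled deposited values (-0.21), where all genes shifted by -0.17 in median. With the replicate number as a block (replicate block), Slc1a5 was at -0.54 (SE 0.17), Slc7a5 at -0.39 (SE 0.15) and Slc7a1 at -0.36 (SE 0.15), limma adjusted p = 0.63 for each; the lowest unadjusted p was 0.050, for Slc1a5. Deviations of same-numbered samples correlated at 0.56 across genes, but the labels do not say that the numbers pair the samples. No call changed under the block. Without a filter, Slc7a11 differed by 0.11 (SE 1.25; limma unadjusted p = 0.93). The separation by number, recomputed under 8 settings chosen after seeing the data, kept both samples numbered 2 above both numbered 1 in all 8 for Slc7a5 (2.29 to 3.60), Slc7a1, Slc1a4, Slc1a5 and Slc38a2. For Slc3a2 it ran from -0.25 to 0.26. Dropping the filter, or requiring all 4 arrays well above background, returned the main values, so these settings were no check on the pattern. The same held for the mean of probes in genes with 1 probe. The causes of the shifts in this section were not tested. Signal near background limits Slc7a11. For Slc7a5, dim in the samples numbered 1, the separation of 3.52 was 2.65 with normexp, 3.03 with the scaled deposited values and 2.29 as the mean of its probes.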
